A study of Mus musculus with 8 samples.

Results

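The probe sets described here measure the ATF4 arm of the stress response and part of the amino acid supply it serves. They were chosen by name, as every probe set that the platform annotation assigns to Atf4, Atf3, Ddit3, Asns, Psat1, Phgdh or Rars. This gave 10 probe sets for the 7 genes, of 12422 tested on the array. Atf3 had 3 probe sets, Asns 2 and each other gene 1, and none of the 10 was annotated to a further gene. Expression was measured in total RNA of whole pancreas from mice aged 3 weeks, on 8 Affymetrix arrays in 4 groups of 2. NOD mice, an inbred strain that develops autoimmune diabetes, carried neither the scid mutation nor the transgene. NOD.scid mice carried the scid mutation, which blocks the joining of antigen receptor genes and leaves almost no mature T or B lymphocytes. BDC2.5/NOD mice carried the BDC2.5 transgene, the rearranged T cell receptor of a CD4 clone that can cause diabetes, and kept their other lymphocytes. BDC2.5/NOD.scid mice carried both, so that the transgenic receptor was formed without the other receptors. All groups share the NOD background, and the labels name no treatment. Each array held RNA of pooled animals (2 isolations from 6 animals each, per the labels), so no value belongs to a single mouse. It is not stated whether both arrays of a group used the same pool, and the p-values therefore measure only how far these arrays differ, which may be technical.

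ATF4 is a basic leucine zipper transcription factor whose translation rises when the initiation factor eIF2 alpha is phosphorylated. Kinases that sense unfolded protein in the endoplasmic reticulum, lack of amino acids, viral RNA or lack of haem carry out that phosphorylation. ATF4 then binds, usually with a C/EBP protein, to amino acid response elements in genes for amino acid synthesis, amino acid import and the charging of transfer RNA. It also raises the factors ATF3 and DDIT3, also called CHOP. The acinar cells that make up most of the pancreas secrete large amounts of digestive enzyme and so place a high demand on both protein folding and amino acid supply. Because ATF4 is controlled largely at translation, the level of its mRNA does not by itself give the level of the protein.

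The core of the amino acid response element was searched for as TGATGNAA on both strands, in windows from 250 bases before to 50 bases after each gene start. RefSeq promoter sequences of GRCm38.p6 were found for 6 of the 7 genes. Rars had no entry and is named only. The core was in the windows of Asns and Atf3, or 2 of 6 genes, against 4.51% of the 27025 genes with such a window. Of 20 measured genes of the cytosolic aminoacyl-tRNA synthetases and their scaffold proteins other than Rars, 14 had a window and 5 of these held the core. The 30 bases round the match are shown for Asns, Atf3 and 4 of the 5 synthetases that held the core. Each is read on the strand of the match, with the core in capitals.
Asns, chr6:7693214-7693243, minus strand: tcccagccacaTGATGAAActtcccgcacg
Atf3, chr1:191183425-191183454, plus strand: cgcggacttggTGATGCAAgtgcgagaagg
Gars, chr6:55037960-55037989, minus strand: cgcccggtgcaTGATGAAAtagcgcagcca
Iars, chr13:49682126-49682155, minus strand: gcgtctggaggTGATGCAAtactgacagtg
Tars, chr15:11399655-11399684, plus strand: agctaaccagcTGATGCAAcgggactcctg
Yars, chr4:129189895-129189924, plus strand: acgagctcagcTGATGCAAcccgacgggac
The match in Asns began 23 bases before the gene start and that in Atf3 110 bases before it, on the strand opposite to the gene. Those of Iars and Yars lay 8 and 4 bases after the start. A match is a run of letters and not evidence that a factor binds there. A window without a match was searched only for these letters, and sequence outside the windows was not searched. The Atf3 window also held a match to TGACGTNA, a cyclic AMP response element with 1 open position, 10 bases before the start. That run was in the windows of 3.36% of all genes. The endoplasmic reticulum stress element, through which ATF6 acts on chaperone genes, was in none of the 6 windows and in 0.14% of all. To set a gene with the core in its window beside a gene without it there, the 250 bases before the starts of Asns and Psat1 follow, read along each gene. RefSeq gives Psat1 2 starts, neither with the core in its window, and the stretch before 1 of them is shown.
Asns, chr6:7693210-7693459, minus strand: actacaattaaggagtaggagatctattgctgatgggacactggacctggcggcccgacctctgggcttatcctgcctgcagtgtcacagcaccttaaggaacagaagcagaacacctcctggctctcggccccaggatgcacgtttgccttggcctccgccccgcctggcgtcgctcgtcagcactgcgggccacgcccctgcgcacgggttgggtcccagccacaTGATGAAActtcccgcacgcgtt
Psat1, chr19:15925060-15925309, minus strand: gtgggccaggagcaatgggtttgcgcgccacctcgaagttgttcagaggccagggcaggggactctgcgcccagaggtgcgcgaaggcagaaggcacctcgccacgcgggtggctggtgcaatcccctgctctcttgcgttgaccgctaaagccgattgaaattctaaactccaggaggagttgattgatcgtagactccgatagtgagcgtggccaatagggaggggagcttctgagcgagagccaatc

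Values are the deposited expression values on the log2 scale, where a difference of 1 is a doubling, and the median over all probe sets was 4.27. Differences were tested with limma in a fit to all 8 arrays. A change was called at a p under 0.05 after Benjamini-Hochberg adjustment across all 12422. Arrays of the same group correlated at Pearson r of 0.9912 to 0.9962 across probe sets, and arrays of different groups at 0.9774 to 0.9903. The middle beta-actin control ranged from 6.95 to 7.74 on 5 arrays and from 9.26 to 9.55 on 3, which were the BDC2.5/NOD.scid replicate 2, the NOD replicate 1 and the NOD.scid replicate 1. Because both BDC2.5/NOD arrays were in the low set, comparisons with that group were also read within the 5 low arrays. Markers of acinar cells were bright in every group, with a mean of 11.48 to 11.89 over the 7 measured. In bulk tissue, fewer cells of a type and less RNA per cell cannot be told apart.

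In BDC2.5/NOD mice, Atf4, Psat1 and Rars were at their highest, and all 3 genes were higher than in NOD mice, by 0.44 to 0.81 on the log2 scale. The same transgene on the NOD.scid background left these 3 genes at -0.13 to 0.25, none past the threshold. For Rars, the 0.25 had a 95% interval of 0.02 to 0.48, and its effects in NOD and in NOD.scid did not differ past the threshold. Asns behaved differently. Its bright probe set differed by less than 0.10 with and without the transgene on each background, and was 0.51 to 0.61 lower in both scid groups than in their NOD counterparts, while its dimmer probe set passed in no comparison. Atf3 was read by 3 probe sets that disagreed, Ddit3 moved by less than 0.4, and Phgdh was dim in all groups. The plot of log2 values by array shows these patterns for each probe set.

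**Figure D1:**
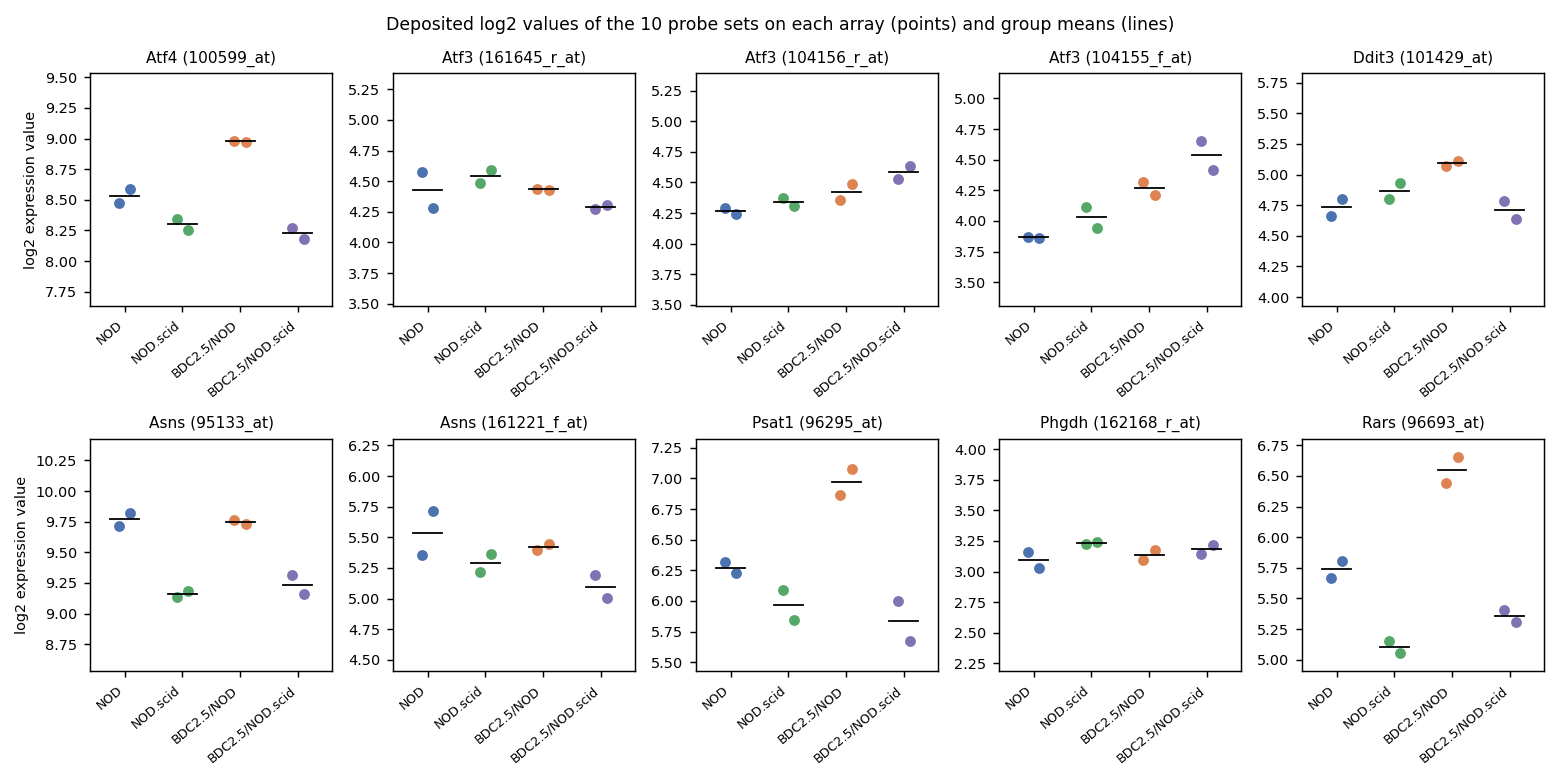
Deposited log2 expression values of the 10 probe sets, 1 panel each, with a point for each array, a line at the mean of each group of 2 and the same height of axis in every panel. The BDC2.5/NOD arrays lie above all others for Atf4, Psat1 and Rars, while for the brighter Asns probe set (95133_at) both scid groups, at 9.14 to 9.31, lie below both others, at 9.72 to 9.82.

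Atf4 itself (100599_at) read 8.98 and 8.97 on the BDC2.5/NOD arrays, 8.48 and 8.59 on the NOD arrays, 8.34 and 8.25 on the NOD.scid arrays and 8.27 and 8.18 on the BDC2.5/NOD.scid arrays. The BDC2.5/NOD arrays were above every other array, the NOD arrays were next, and those of the scid groups overlapped. With the transgene in NOD mice Atf4 rose by 0.44 (SE 0.084, 1.36-fold, limma adjusted p = 0.00618). In NOD.scid mice the difference was -0.07, with a 95% interval of -0.26 to 0.11 and an adjusted p of 0.753. These transgene effects differed by -0.52 (SE 0.118, limma adjusted p = 0.0268), a call lost with any 1 of 5 arrays left out. BDC2.5/NOD.scid was 0.75 below BDC2.5/NOD (SE 0.084, 1.68-fold, adjusted p = 0.000142), and NOD.scid lay 0.23 below NOD without passing (adjusted p = 0.211). Within the arrays of low actin control the rise in NOD was 0.39, the difference with scid among transgenic mice -0.71 and the interaction -0.38. The rise in NOD was not called without NOD replicate 1 (adjusted p = 0.072) or without either BDC2.5/NOD array (0.0849 and 0.0715). The interaction was not called under quantile normalization (adjusted p = 0.0623).

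Ddit3 (101429_at), the factor CHOP that accompanies prolonged stress of the endoplasmic reticulum, had its highest values in BDC2.5/NOD, at 5.07 and 5.11. It read 4.66 and 4.80 in NOD, 4.80 and 4.93 in NOD.scid, with 4.79 and 4.64 for the transgenic scid group. The NOD values overlapped those of both scid groups. BDC2.5/NOD.scid was 0.38 lower than BDC2.5/NOD (SE 0.103, limma adjusted p = 0.0413). That call was lost without either BDC2.5/NOD array (adjusted p = 0.184 and 0.257), without either BDC2.5/NOD.scid array (0.056 and 0.222) and with the actin control level (0.0513) or the number in the titles (0.0674) as a term. The difference of 0.36 with the transgene in NOD did not pass (adjusted p = 0.0532), nor did the interaction of -0.51 (adjusted p = 0.0739). The former passed under 6 alternatives, at adjusted p-values of 0.0248 (array weights) to 0.049, and the latter among the brighter probe sets (0.0467). In NOD.scid the transgene difference was -0.15, with a 95% interval of -0.37 to 0.07.

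Atf3, a stress-induced factor of the same leucine zipper class, depended on the probe set. On 104155_f_at, a design whose suffix marks probes shared by a family of similar sequences, it read 3.87 and 3.86 in NOD, 4.12 and 3.95 in NOD.scid, with 4.32 and 4.21 for BDC2.5/NOD, then 4.65 and 4.42 for BDC2.5/NOD.scid. Both transgenic groups were above both groups without the transgene. The transgene difference was 0.50 in NOD.scid (SE 0.111, limma adjusted p = 0.0165) and 0.40 in NOD (SE 0.111, adjusted p = 0.0474). The NOD value missed the threshold once array medians were centred (adjusted p = 0.0537) and without any 1 of the 4 arrays compared (0.141 to 0.306). With the NOD.scid replicate 2 left out, the value in NOD.scid missed it (0.112), as it did with BDC2.5/NOD.scid replicate 1 left out (0.121). On 104156_r_at the same differences were 0.24 and 0.15, and on 161645_r_at -0.25 and 0.01, with no call on either. All 3 probe sets lay between 3.86 and 4.65 on every array, close to the array medians.

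Asns, which makes asparagine from aspartate and glutamine and is a standard target of ATF4, was read by a bright and a dimmer probe set. The bright 95133_at gave 9.72 and 9.82 in NOD, with 9.76 and 9.74 for BDC2.5/NOD, then 9.14 and 9.19 in NOD.scid, with 9.31 and 9.16 for BDC2.5/NOD.scid. The groups without scid overlapped each other, as did those with scid, and the former were above the latter. Without the transgene NOD.scid was 0.61 below NOD (SE 0.084, 1.52-fold, limma adjusted p = 0.00248). With it BDC2.5/NOD.scid was 0.51 below BDC2.5/NOD (SE 0.084, 1.43-fold, adjusted p = 0.00253). The former was -0.64 within the low and -0.58 within the high actin arrays, and missed the threshold without NOD replicate 2 (adjusted p = 0.0506). The transgene differences were -0.02 in NOD, with a 95% interval of -0.20 to 0.16, and 0.07 in NOD.scid, with an interval of -0.11 to 0.26. The dimmer 161221_f_at, which read at most 5.71, gave differences of -0.24 and -0.32 for scid without and with the transgene, and passed in no comparison.

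Psat1 (96295_at) encodes phosphoserine aminotransferase, the middle enzyme of serine synthesis from glycolysis. It read 6.87 and 7.08 in BDC2.5/NOD, 6.32 and 6.23 in NOD, 6.09 and 5.84 in NOD.scid, with 6.00 and 5.67 for the transgenic scid group. As with Atf4, BDC2.5/NOD stood above all other arrays, NOD came next and the scid groups overlapped. It was 0.70 higher with the transgene in NOD (SE 0.127, 1.63-fold, limma adjusted p = 0.00493), and by 0.74 within the low actin arrays. In NOD.scid the difference was -0.13, with a 95% interval of -0.41 to 0.15, and its sign was not the same within the low (0.16) and the high (-0.42) actin arrays. The effects differed by -0.83 (SE 0.180, limma adjusted p = 0.0205), and by -0.59 within the low actin arrays. BDC2.5/NOD.scid was 1.14 below BDC2.5/NOD (SE 0.127, 2.20-fold, adjusted p = 0.000146), while the difference of -0.31 between NOD.scid and NOD did not pass (adjusted p = 0.291). The rise in NOD was not called without BDC2.5/NOD replicate 2 (adjusted p = 0.088). The interaction missed the threshold with any 1 of 6 arrays left out, at 0.0505 to 0.13, and kept it without NOD.scid replicate 2 or BDC2.5/NOD.scid replicate 1.

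Phgdh (162168_r_at), the enzyme that opens the serine pathway, read 3.03 to 3.24 over the 8 arrays, below the array medians. Its group means spanned 3.10 to 3.23 and it passed in no comparison. The largest difference was 0.14, between NOD.scid and NOD (SE 0.097, limma adjusted p = 0.583). The deposited values carry no detection calls, so whether this probe set was above background is not known.

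Rars (96693_at), which joins arginine to its transfer RNA, had the largest differences of the 10 probe sets for the transgene in NOD and for scid with and without the transgene. It read 6.44 and 6.65 in BDC2.5/NOD, 5.67 and 5.81 in NOD, 5.40 and 5.31 in the transgenic scid group, and 5.16 and 5.06 in NOD.scid. No groups overlapped, and the order was BDC2.5/NOD, NOD, BDC2.5/NOD.scid and NOD.scid. The transgene raised it by 0.81 in NOD (SE 0.104, 1.75-fold, limma adjusted p = 0.000596), and by 0.74 within the low actin arrays. In NOD.scid the difference of 0.25 did not pass (adjusted p = 0.231, 95% interval 0.02 to 0.48). It was 0.35 within the low and 0.15 within the high actin arrays. The difference of -0.56 between these effects also missed the threshold (SE 0.147, adjusted p = 0.0515), but passed under 3 alternatives, at 0.0279 to 0.0423. Rars was lower with scid in both settings, by 0.63 without the transgene (SE 0.104, adjusted p = 0.00711) and by 1.19 with it (2.28-fold, adjusted p = 2.01e-05). The former call was lost without NOD replicate 2 (adjusted p = 0.0871) and without NOD.scid replicate 2 (0.0722). The rise in NOD and the fall among transgenic mice held with each array left out in turn, at 0.70 to 0.91 and -1.30 to -1.08.

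**Figure D2:**
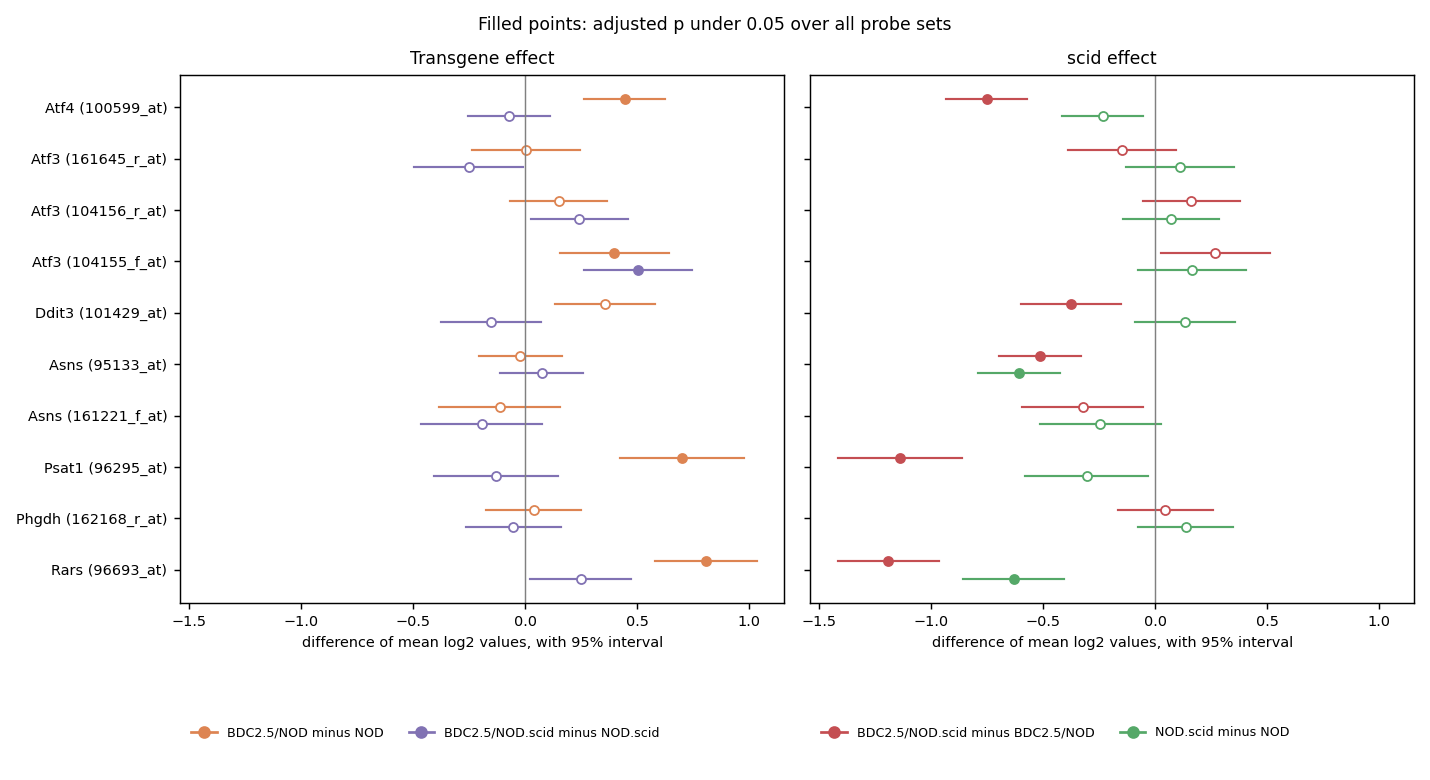
Differences of mean log2 values for the 10 probe sets, with 95% intervals from the limma fit, for the transgene on each background (left) and for scid with and without the transgene (right), where filled points passed an adjusted p of 0.05. Atf4, Psat1 and Rars lie at 0.44 to 0.81 for the transgene in NOD and at -1.19 to -0.75 for scid among transgenic mice, while both Asns probe sets have transgene intervals that include 0.

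Counted over the 10 probe sets, 4 were higher with the transgene in NOD (Atf4, Psat1, Rars and 104155_f_at of Atf3), where 3.91% of all probe sets were higher. This count was 2 without NOD replicate 1 or BDC2.5/NOD replicate 1, and 1 without BDC2.5/NOD replicate 2. With array medians centred, 38.9% of all calls in that comparison were higher, against 49.1% as deposited. Among transgenic mice, 5 of 10 were lower with scid (Atf4, Ddit3, Asns, Psat1 and Rars), against 5.35% of all. Without the transgene 2 of 10 were lower with scid (Asns and Rars), against 1.61%, and none without NOD replicate 2 (limma, with 4 of 10 at an unadjusted p under 0.05 over all arrays). In NOD.scid the transgene raised 1 of 10, an Atf3 probe set, against 2.37% of all. The interaction was below 0 and past the threshold for 2 of 10, Atf4 and Psat1, against 2.5% of all. The median difference of the 10 was 0.25 for the transgene in NOD and -0.35 for scid among transgenic mice, where the medians of all probe sets were 0.03 and -0.01. The transgene in NOD, scid among transgenic mice and the interaction all use the BDC2.5/NOD arrays, so their values are not independent of each other. The genes were chosen with results of these data known.

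Other genes of the pathway were taken from lists, with each gene read by its brightest probe set over the 8 arrays. Upstream of ATF4, 15 genes of the eIF2 kinases, the phosphatase subunits and the eIF2 machinery were measured, and none passed for the transgene on either background (limma, with 2 and 6 of 15 at an unadjusted p under 0.05 in NOD.scid and NOD). Of all genes, 6.97% were called in NOD.scid and 8.71% in NOD. With only the groups compared in the fit, 3 were higher and 1 lower in NOD. That fit called 1521 of all 12422 probe sets there, against 990 in the fit used. Eif2ak3, the kinase PERK of the endoplasmic reticulum, was at 3.64 in NOD and 3.69 in BDC2.5/NOD. Ppp1r15a, the phosphatase subunit that ends the response, was at 5.56 and 5.69. Eif2s3x, a subunit of eIF2, and Ppp1r15b, the constitutive phosphatase subunit, were 0.53 and 0.51 lower in NOD.scid than in NOD (limma adjusted p = 0.00521 and 0.0185), where 1.9% of all genes were lower. Neither was called without either NOD array. Among transgenic mice 2 of 15 were lower with scid, against 6.08% of all genes. These were Eif2b5 at -0.47 and Eif2s3x at -0.31 (limma adjusted p = 0.0138 and 0.0382). A second probe set of Eif2b5 was at -0.33 and not called. The count ranged from 0 to 3 with each array left out in turn.

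Partners and regulatory targets of ATF4 followed next. In NOD the transgene raised 4 of 19 and lowered 1, against 8.71% of all genes called in either direction. Atf5, a close relative of ATF4, rose by 0.76 (SE 0.098, limma adjusted p = 0.000617), and read 6.06 and 5.99 in BDC2.5/NOD against 5.19 to 5.53 on the other 6 arrays. Eif4ebp1, a brake on cap-dependent translation, rose by 0.45. Herpud1, which acts in the disposal of unfolded protein, rose by 0.86, and Ddit4, a stress-induced inhibitor of mTORC1, by 0.79, while Nfe2l2 fell by 0.45. In NOD.scid the transgene raised 5 of 19 and lowered 1, against 6.97% of all genes. Ddit4 rose by 1.96 (SE 0.096, adjusted p = 5.98e-08), Cebpb, a C/EBP factor that can pair with ATF4, by 1.26, Nupr1, a stress protein of acinar cells, by 1.04 and Herpud1 by 0.98, with Cebpd at 0.85 and Nfe2l2 at -0.40. Atf5 was at -0.15 there and did not pass. Without the transgene Herpud1 was 1.08 lower in NOD.scid than in NOD (limma adjusted p = 0.000338), where 1.9% of all genes were lower. The mean of Herpud1 was 8.31 in BDC2.5/NOD.scid and 8.41 in NOD. The transgene effects differed for 5 of 19, against 5.38% of all genes. These were Ddit4 (1.17), Cebpb (0.91) and Cebpd (0.89), with a higher transgene effect in NOD.scid, and Atf5 (-0.91) and Eif4ebp1 (-0.77), with a higher effect in NOD. The count was 3 without NOD replicate 1 or BDC2.5/NOD replicate 1, and 2 without BDC2.5/NOD replicate 2. Among transgenic mice 3 of 19 were higher with scid (Cebpb at 0.95, Ddit4 at 0.89 and Cebpd at 0.54) and 4 lower (Herpud1, Atf5, Eif4ebp1 and Vegfa), against 9.25% of all genes called. This count of 7 was 4 without BDC2.5/NOD replicate 2. Trib3, a further target of ATF4, was at 0.30 in NOD and 0.32 in NOD.scid, with no call.

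The cytosolic aminoacyl-tRNA synthetases, the family of enzymes to which Rars belongs, were counted together with their scaffold proteins. This list followed the direction of Rars among transgenic mice. With Rars left out, 11 of 20 were lower with scid and none higher, against 6.08% of all genes lower. Their median difference was -0.44, against -0.02 for all genes. Eprs was at -0.98 (SE 0.134, limma adjusted p = 0.000665), Nars at -0.94, Tars at -0.90 (SE 0.121, adjusted p = 0.000579) and Iars at -0.78. Tars read 5.89 on both BDC2.5/NOD arrays and 5.08 and 4.89 in BDC2.5/NOD.scid, so that these groups did not overlap. The count was 7 without BDC2.5/NOD replicate 1 and 6 without BDC2.5/NOD replicate 2. Of the 5 synthetases with the element core, 4 were lower, among them Gars, Iars and Tars but not Yars, and of the 9 with a window and no match also 4.

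With the transgene in NOD, 6 of the 20 synthetase genes rose and 1 fell, against 4.16% of all genes higher. Nars rose by 0.67 (SE 0.154, limma adjusted p = 0.0186), Farsa by 0.47, Wars by 0.45 and Vars by 0.44, and Lars fell by 0.39. This count rested on single arrays. It was 2 higher without either NOD array, 1 without BDC2.5/NOD replicate 1 and 0 without BDC2.5/NOD replicate 2. In NOD.scid no synthetase passed for the transgene (limma, with 1 of 20 at an unadjusted p under 0.05), where 6.97% of all genes were called. Their median there was -0.12. The interaction passed for 2 of the 20, Vars (-0.58) and Farsa (-0.62), where it was below 0 and called for 2.9% of all genes. Neither call held without NOD replicate 2 or either BDC2.5/NOD array, and no other gene of the 20 passed then. Without the transgene, 2 of the 20, Lars (-0.67) and Iars (-0.60), were lower in NOD.scid than in NOD, where 1.9% of all genes were lower. None was called there without NOD replicate 2, 1 without NOD replicate 1 or NOD.scid replicate 2, and 4 without NOD.scid replicate 1.

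Amino acid transporters gave 4 of 17 higher with the transgene in NOD and none lower, against 4.16% of all genes higher. Slc3a2, the heavy chain shared by several amino acid exchangers, rose by 0.62 (SE 0.084, limma adjusted p = 0.000875). Its light chains Slc7a5 and Slc7a8, which carry large neutral amino acids, rose by 0.51 and 0.94, and Slc7a3, a carrier of cationic amino acids such as arginine, by 0.41. Slc3a2 read 9.07 and 9.09 in BDC2.5/NOD and 8.05 to 8.51 on the other 6 arrays. Among transgenic mice 5 of 17 were lower with scid, led by Slc3a2 at -0.71, against 6.08% of all genes. This count was 1 without BDC2.5/NOD replicate 1 and 2 without BDC2.5/NOD replicate 2. It was 3 with replicate 1 of the transgenic scid group left out. The count of 4 in NOD was 2 without either BDC2.5/NOD array. In NOD.scid the transgene lowered 1 of 17, Slc38a5, a glutamine carrier, by 0.58, where 6.97% of all genes were called. It raised no transporter past the threshold. The call for Slc38a5 was not kept in every fit with 1 array left out.

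Of 10 other serine, glycine and one-carbon genes, 2 rose and 1 fell with the transgene in NOD, where 8.71% of all genes were called. Mthfd2, the mitochondrial one-carbon enzyme, rose by 0.50 (SE 0.092, limma adjusted p = 0.00516) and Psph, which completes serine synthesis after PSAT1, by 0.37 (adjusted p = 0.0472). Gcsh, of the glycine cleavage system, fell by 0.59. Mthfd2 read 8.39 and 8.35 in BDC2.5/NOD, 7.94 and 7.79 in NOD, 7.45 and 7.29 in NOD.scid, with 7.50 and 7.43 for the transgenic scid group. It was 0.91 lower with scid among transgenic mice (adjusted p = 6.92e-05) and 0.49 lower without the transgene. A dimmer probe set of Mthfd2 was at 0.15, 0.02 and -0.07 in these 3 comparisons, with no call. The median of this list was -0.05 for the transgene in NOD, so the list as a whole did not follow these 2 enzymes. Without either BDC2.5/NOD array none of the 10 was called in NOD. Of 15 other enzymes of amino acid metabolism, Aldh18a1 of proline synthesis (0.53), Bcat2 of branched-chain amino acids (0.61) and Arg2, an arginase (0.50), rose in NOD and Glul fell (-0.39), where 8.71% of all genes were called. On their dimmer probe sets Arg2 was at -0.22 and Aldh18a1 at -0.12, with no call. None of these 4 was called without either BDC2.5/NOD array. Arg2 also rose in NOD.scid, by 0.92, with its dimmer probe set at 0.16 and not called. It was the only 1 of the 15 called there, where 6.97% of all genes were called. Without the transgene Arg2 was 0.93 lower in NOD.scid than in NOD (limma adjusted p = 0.000905), where 1.9% of all genes were lower. Its dimmer probe set was at -0.07 and not called. On the brighter probe set, the mean was 5.755 in BDC2.5/NOD.scid and 5.765 in NOD.

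Chaperones of the endoplasmic reticulum and other targets of XBP1 or ATF6 were the larger group to move in the same comparisons. With the transgene in NOD 13 of 25 rose, with a median of 0.44, and among transgenic mice 15 of 25 were lower with scid, with a median of -0.66, where 4.16% and 6.08% of all genes were called in those directions. The interaction was below 0 and called for 10 of 25, against 2.9% of all genes. Without BDC2.5/NOD replicate 2 these counts were 8, 9 and 4, and the last was 5 without NOD replicate 1 and 6 without BDC2.5/NOD replicate 1. Pdia4, a disulfide isomerase, rose by 1.82 in NOD and was at 6.01 in both scid groups. In NOD.scid the transgene raised 3 of 25, among them Hspa5 (0.81), and lowered Sec61b, where 6.97% of all genes were called. The plot of gene lists shows the 4 comparisons side by side.

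**Figure D3:**
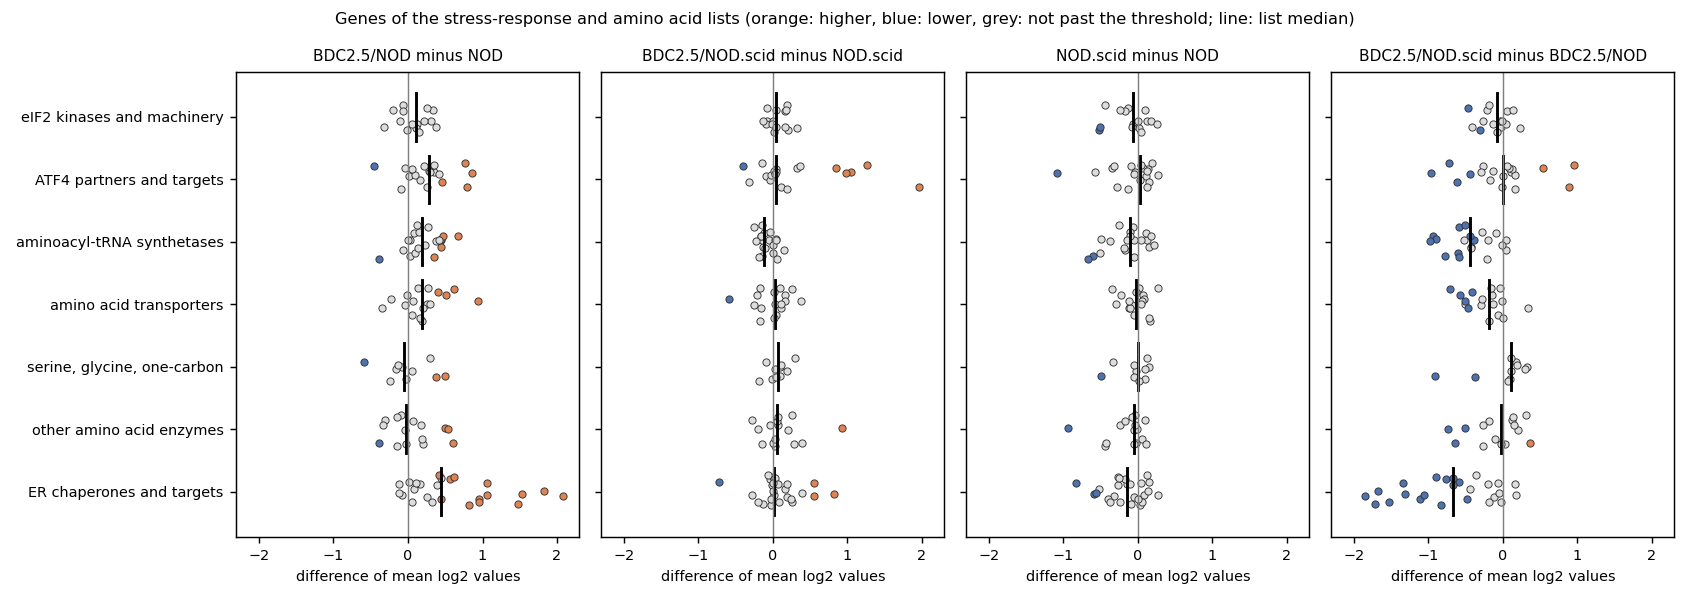
Differences of mean log2 values for the genes of 7 lists (rows, with the members described above left out) in 4 comparisons (panels), with a point for each gene coloured by whether it passed an adjusted p of 0.05 and a line at the list median. The synthetases have a median of 0.19 for the transgene in NOD, -0.12 in NOD.scid and -0.44 for scid among transgenic mice, and the chaperones 0.44, 0.02 and -0.66.

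Markers of cell types moved in the same comparisons. The shares of all genes called in either direction, for reading their counts, were 8.71% and 6.97% for the transgene in NOD and in NOD.scid, and 2.73% and 9.25% for scid without and with the transgene. Of 7 acinar markers, 2 rose with the transgene in NOD (Sycn at 0.95 and Amy1 at 0.67), and the same 2 were lower with scid among transgenic mice. None passed with the transgene in NOD.scid or for scid without it (limma, with 2 and 1 at an unadjusted p under 0.05). Their summed linear level was 41846 to 43793 in BDC2.5/NOD, 39713 to 40734 in NOD, 40293 to 40726 in NOD.scid, with 40038 to 40495 for the transgenic scid group. Of 8 fibroblast markers, 7 fell with the transgene in NOD and 5 in NOD.scid, and their summed level was 726 to 734 in BDC2.5/NOD, 1223 to 1250 in NOD, 1077 to 1155 in NOD.scid, with 926 to 939 for the transgenic scid group. Of 10 macrophage markers, 7 rose with the transgene in NOD.scid and none in NOD (limma, with 1 at an unadjusted p under 0.05), 7 were higher with scid among transgenic mice, and their summed level was 802 to 885 in BDC2.5/NOD.scid against 380 to 458 in the other groups. Of 10 islet markers, 5 fell with the transgene on each background, and their summed level was 2081 to 2135 in BDC2.5/NOD, 3463 to 3547 in NOD, 3704 to 4115 in NOD.scid, with 1441 to 1581 for the transgenic scid group. All 4 erythroid markers were higher in NOD.scid than in NOD, the comparison in which Asns and Rars were lower, and all 4 fell with the transgene in NOD.scid. Their summed level was 4582 to 4811 in NOD.scid, 2144 to 2421 in NOD, 1461 to 1498 in BDC2.5/NOD and 2012 to 2155 in the transgenic scid group. Of 5 duct markers, 1 rose and 1 fell with the transgene in NOD, 1 fell with it in NOD.scid and 1 was higher with scid in each setting. Of 3 adipocyte markers, 1 fell with the transgene in NOD and 1 was lower in NOD.scid than in NOD. No marker of the 6 measured for T cells or the 4 for B cells passed in any comparison (limma, with at most 2 at an unadjusted p under 0.05). The part of these shifts in the values of Atf4, Psat1, Rars and Asns was not tested.

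Over the 8 arrays, the genes most like Atf4 by Pearson correlation among 4785 genes above the median level of all probe sets were BC031181 (0.988), Dnajb9 (0.987), Yars (0.980), Neurl4 (0.978) and Sar1a (0.977). Dnajb9, a chaperone of the endoplasmic reticulum, had means of 5.26 in BDC2.5/NOD, 4.31 in NOD, 3.93 in NOD.scid, with 3.73 for the transgenic scid group, the order of Atf4. Those most like the bright Asns probe set were Ddx50 (0.993), Psmd6 (0.981), Eif5 (0.968), Edem3 (0.965) and Xpot (0.962). Xpot, which exports transfer RNA from the nucleus, had means of 6.12 in BDC2.5/NOD, 6.07 in NOD, 5.47 in NOD.scid, with 5.45 for the transgenic scid group. These correlations describe 8 arrays in 4 groups and carry no test. The genes were read on the same arrays and share the differences between groups.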

How the data were processed

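The authors' deposited table held log2 expression values for 12488 probe sets on 8 Affymetrix arrays, of which 66 were array controls. Per the labels' protocols, about 10 ug of total RNA was labelled for each target. How probes were summarised and normalized is not stated. The base of the logarithm was inferred from the range of values. The values were used without further scaling. A model of 4 group means used all 8 arrays in limma 3.58.1 (R 4.3.3, 4 residual degrees of freedom, a prior worth 8.07, a variance trend), and two-sided p-values were adjusted over 12422 probe sets. Symbols came from the platform annotation and matched GRCm38.p6 gene identifiers for 10817 of 10833 probe sets of a single symbol. For lists, a gene was read by its probe set of highest mean, over 8251 genes. On data simulated for the transgene in NOD (12422 probe sets), 76.4% of differences of 0.5 were found and 7.09% of calls were false, above the nominal level. The simulated noise had the spread fitted to these arrays, was independent between probe sets and held no array effect. These 2 figures therefore need not hold for the deposited data. The named genes are the 7 chosen genes, up to 4 genes per list and comparison with the smallest p past the threshold and arrays of the groups apart, and the 5 genes most like Atf4 and Asns. Eif2ak3, Ppp1r15a, Trib3, Lars in NOD, Nfe2l2, Cebpd, Vegfa, second probe sets, synthetases with the element core, Amy1 and Sycn were named after their values were seen. The members and lists were chosen with earlier results of these data known. Promoters were searched with pandas 2.3.3, and matplotlib 3.10.9 drew the plots. With 2 arrays a group, precision is limited by their number. The sequence round 1 synthetase match is not reported here.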

Additional observations from a re-analysis of the deposited data

Results flagged for a closer look

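The effect of the transgene differed between the NOD.scid and NOD backgrounds for 2 of the 7 chosen genes and 18 genes of the lists, by the limma test of the difference itself. Of all genes, 5.38% were called for this difference. Given as the effect in NOD.scid minus that in NOD on the log2 scale, it was -0.52 for Atf4 and -0.83 for Psat1. For genes of transfer RNA charging and proline synthesis it was -0.58 for Vars, -0.62 for Farsa and -0.73 for Aldh18a1. With any 1 array other than NOD replicate 2 left out, the call for Aldh18a1 was lost. The calls for Atf4 and Psat1 were also lost with several single arrays left out, as given above. For the factors and regulators the difference was -0.91 for Atf5, -0.77 for Eif4ebp1, 1.17 for Ddit4, 0.91 for Cebpb and 0.89 for Cebpd. For genes of the endoplasmic reticulum it was -1.52 for Creld2, -1.82 for Pdia4, -1.34 for Ssr1, -0.85 for Manf, -1.62 for Pdia3, -1.15 for Dnajb9, -0.72 for Hspa5, -0.73 for Sec61b, -0.71 for Dnajc3 and -0.51 for Hsp90b1. Sycn, an acinar marker, was at -0.68, and second probe sets of Wars (98606_s_at) and Glul (94852_at) at -1.12 and 1.4995. All of these use the BDC2.5/NOD pair.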

How the results depend on the processing

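The 50 differences of the 10 probe sets were recomputed under up to 20 alternatives each, 980 values in all. None that passed changed direction, 917 kept their side of the threshold, 47 fell short of it and 16 newly passed it, while 20 values that did not pass changed sign. Those that fell short were all among the differences called in the fit used, which were a minority of the 50. The 917 is therefore not a rate at which calls held. The cause of these changes was not tested. In what follows, counts are of probe sets called. With each array left out in turn, the counts of the 10 ranged from 0 to 1 for the transgene in NOD.scid, 1 to 5 for the transgene in NOD, 0 to 2 for scid without the transgene, 4 to 5 for scid with it and 0 to 2 for the interaction. Over all probe sets these ranges were 445 to 746, 279 to 1139, 71 to 352, 329 to 1149 and 195 to 491. The count of the 10 for the interaction, 2 in the fit used, was 1 under quantile normalization, 1 without a variance trend, 4 among the brighter probe sets and 0 at a threshold of 0.01. That for the transgene in NOD.scid was 0 among the brighter probe sets, 0 with only the groups compared and 0 at 0.01. With only the groups compared, all probe sets gave 455 for the transgene in NOD.scid, 1521 for that in NOD and 143 for scid without it. Array weights gave 1568 for the transgene in NOD. With the actin control level as a term, the counts were 1315, 1507 and 739 in the same 3 comparisons and 1042 for the interaction. At 0.01 they were 432, 419, 109, then 484 for scid with the transgene and 229 for the interaction. With the BDC2.5/NOD pair counted as 1 sample, the 10 gave 1 for the transgene in NOD and 0 for the interaction, and all probe sets gave 278, then 159 and 311 for scid without and with the transgene, and 197. Chosen after seeing the data, leaving out the 3 arrays of high actin control, which leaves 3 groups with 1 array assumed to vary like the BDC2.5/NOD pair, gave 1418, 2179, 1489, 2138 and 1621. The 10 then gave 2 for the transgene in NOD.scid and 5 for scid without it.

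The titles number 1 array of each group and leave the other bare, and nothing says that this pairs arrays. The difference between the numbered and the bare array correlated between groups at -0.32 to 0.29 over 6 pairs. With the number as a replicate block, the count of the 10 for the interaction was 1, with Atf4 at an adjusted p of 0.0627, and that for scid with the transgene was 4, with Ddit3 at 0.0674.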

Other observations

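Different probe sets of the same gene gave different calls for several amino acid genes, among them Arg2, Aldh18a1 and Mthfd2 as given above, and Wars and Glul. Wars, which charges transfer RNA with tryptophan, rose with the transgene in NOD by 0.45 on its brightest probe set (98605_at) and by 1.14 on 98606_s_at (limma adjusted p = 2.34e-05), while 161337_f_at was at 0.08 and did not pass. On 98606_s_at the transgene effects differed between backgrounds by -1.12 (limma adjusted p = 0.000559), and on the brightest the difference of -0.51 did not pass (0.073). Glul, glutamine synthetase, was at -0.0015 with the transgene in NOD.scid on 161826_r_at, with a 95% interval of -0.23 to 0.22, and was 1.31 higher on the dimmer 94852_at (limma adjusted p = 3.79e-05).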
